A study of Mus musculus with 30 samples.

Results

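The 6 libraries described here hold the RNA that came down with PTBP1 from injured mouse sciatic nerve, and the RNA that came down when the PTBP1 antibody had been blocked. They were chosen by their sample titles and are 6 of 30 samples. PTBP1 IP of injured nerve had 3 libraries: axoplasm, the cytoplasm pressed out of the nerve, was taken 7 days after a crush and immunoprecipitated (IP) with an antibody against PTBP1. PTBP1 blocked IP of injured nerve had 3 libraries, made the same way except that the antibody was first saturated with the peptide it recognises. Each library was made from 10 pooled nerves, and the design gives the 3 repeats as independent. The p-values rest on the spread between pools of the same group. For the main test of PTBP1 IP against blocked IP, this spread was estimated over the injured and naive PTBP1 libraries together. The other samples used for comparison were PTBP1 IP and blocked IP of naive nerve, nucleolin IP and blocked IP of injured nerve, and the unprecipitated input of injured nerve, with 3 libraries each. No transgene or other agent is named for any group, and no strain, sex or age of the mice was stated in the labels.

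PTBP1, the polypyrimidine tract binding protein, is an RNA-binding protein that recognises runs of C and U. In the nucleus it is best known for repressing exons in splicing, and it holds down neuronal exons in cells other than neurons. It also shuttles to the cytoplasm, where it binds 3' untranslated regions (3' UTRs) and affects the stability, translation and localization of mRNAs. In the sciatic nerve, axons carry mRNAs whose local translation after injury makes signals that travel back to the cell body. A nerve extract also holds cytoplasm of Schwann cells, fibroblasts, blood vessels and, after a crush, macrophages. In such an extract, fewer cells of a type and less RNA per cell cannot be told apart.

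Transcripts with longer pyrimidine stretches tended to have higher values in IP, with a weak Spearman correlation of 0.174, a property picked after the data were seen. The longest uninterrupted C and T stretch of transcripts at both ends of the comparison is shown here for that reason. Each line is a 30-base window of the transcript (GENCODE sequence, GRCm38, transcript strand, T for U), with the stretch in capitals; where the stretch is longer than 30 bases, its first 30 are shown. The first group had higher values in IP than in blocked IP.
Marcks: TCCTTTCTTTCTTTCTTTCTTTCTTTCTTT
Gatm: accttgTCTTTCTTTTTCCTCTTTggtaga
Fcer1g: gcttcaTTTCTTTTTCCTTCCCTgatcctc
Tram1: CCTTTCTTTTCTCTTCTTTTCTCCTCTTTT
Rab21: TCTTCCTCCCTCCCTCCCTCCCTCTCTCCC
Col1a1: ccaCTTTTTTCTCTCCCCCCCCCCCCaggg
Frg1: TCTCCTCCCTCCCTCTCTCTCTCTCTCTCT
Lbh: CCTCCTCTTTTCCTCCTCCTCCTCCTCCTC
The second group had lower values in IP.
Fabp4: tggaagacagCTCCTCCTCgaaggtttaca
Snhg9: caagaattgTCCTCTTTTCTCaaataaagt
Pnn: gaatgtaaaTCTCTTTCTCCTggaaaagag

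All 8 windows shown for the first group lie in 3' UTRs, but the windows were picked, so this is not a result. Col1a1, Frg1 and Lbh were taken from the transcripts of highest level in IP. Of the high-ranked transcripts not shown, Rhot1 above blocked IP had its stretch in a noncoding exon. Cdk5, Fxyd2 and Med9, below blocked IP, had theirs in 3' UTRs. Marcks lies at chr10:37135562-37135591 on the minus strand, Gatm at chr2:122595125-122595154 on the minus strand, and Fcer1g at chr1:171229634-171229663 on the minus strand. Tram1 lies at chr1:13566071-13566100 and Rab21 at chr10:115287849-115287878, both on the minus strand. Col1a1 lies at chr11:94952229-94952258 on the plus strand, Frg1 at chr8:41397506-41397535 on the minus strand and Lbh at chr17:72941642-72941671 on the plus strand. In the second group Fabp4 lies in the 5' UTR at chr3:10208514-10208543 on the minus strand, Snhg9 in a noncoding exon at chr17:24719543-24719572 on the minus strand, and Pnn in coding sequence at chr12:59071944-59071973 on the plus strand. These windows are examples and do not show the whole range. The longest stretch was 10 to 57 bases in the 10 highest ranked transcripts above blocked IP, with a median of 25, and 9 to 27 bases in the 10 below, with a median of 13.5. Over the 14251 tested transcripts with a sequence the median was 14 bases. The 10 above were also longer transcripts, with a median length of 3384.5 bases against 1085 in the 10 below. Among those above, Dhrs2 had 10 bases in coding sequence and Ebf1 had 57 in the 5' UTR, and among those below, AI480526 had 27 and Clec2d 18.

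The 3 IP libraries held 19080479, 14886635 and 21234073 counts over the listed transcripts, and the 3 blocked libraries 12775417, 8409056 and 17578792. Of the 15041 listed transcripts, 7.26%, 6.46% and 1.64% had 0 counts in IP libraries 1, 2 and 3, against 25.8%, 28.7% and 16.9% in the blocked libraries. The deposited table keeps a transcript only where some group of the 12 libraries had at least 5 counts in all 3 of its libraries, so a transcript kept for its IP level could not be at 0 there, and these shares carry no test. With every library thinned to 8409056 counts, the shares were 3.03% to 9.28% in IP and 18.4% to 28.7% in blocked IP. The 10 most abundant transcripts took 27.7%, 26.0% and 13.6% of the counts in IP and 13.6%, 15.4% and 12.3% in blocked IP (exact two-sided permutation p = 0.3). IP library 3 stood apart from the other two: its log2 CPM correlated with blocked library 3 at 0.908 and with IP library 1 at 0.844, while IP libraries 1 and 2 correlated at 0.930. CPM is the count scaled to library size and is not corrected for transcript length.

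No transcript passed the test of IP against blocked IP. With edgeR's quasi-likelihood test and Benjamini-Hochberg adjustment, 0 of 14540 tested transcripts were higher and 0 lower in IP at an adjusted p under 0.05 (0% in each direction), and the smallest adjusted p was 0.193. At an unadjusted p under 0.05, 1566 transcripts (10.8%) had higher and 249 (1.71%) had lower values in IP. DESeq2 called 874 of 14303 higher (6.11%) and 68 lower (0.475%), and limma voom called 319 of 14540 higher (2.19%) and 0 lower. The authors' deposited table of the 12 PTBP1 libraries gives 1148 transcripts higher (7.63%) and 13 lower (0.0864%) at an FDR under 0.05, and the authors' deposited table of the 6 injured libraries gives 263 of 8932 higher (2.94%) and 11 lower (0.123%). DESeq2, limma voom, both deposited tables and edgeR's unadjusted p each gave more transcripts higher than lower. All use the same IP and blocked libraries, so they are not independent of each other. With a filter of a mean of at least 5 CPM, 567 of 9162 transcripts were higher and 225 lower at an edgeR unadjusted p under 0.05. The groups did not overlap, with all 3 IP libraries above all 3 blocked libraries, in 2414 transcripts (16.6%), and with all 3 below in 917 (6.31%). The table of 12 libraries was filtered on the group where a transcript is high. Neither this excess nor the excess of higher calls from that table therefore carries a test. The excess of transcripts without overlap lay at low levels. In quintiles by mean CPM over the 6 libraries, 26.6% were above and 3.23% below in quintile 1, the lowest. The shares were 6.46% and 9.15% in quintile 4, and 12.3% and 11.2% in quintile 5. Of the 319 transcripts called by limma voom, 264 were also called by DESeq2, and in all 264 the groups did not overlap. Both tools used the same libraries, and calls with 3 libraries a group favour groups without overlap. These counts are therefore no separate support for the calls. Without IP library 3, edgeR called 4 transcripts higher, those of Fcer1g, Col1a1, Marcks and Gatm.

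The 10 transcripts with the smallest unadjusted p among those with all IP libraries above all blocked ones were led by Fcer1g. It encodes the gamma chain shared by Fc receptors of myeloid cells. Fcer1g had 18710, 7046 and 3392 CPM in IP libraries 1, 2 and 3, against 459, 438 and 622 CPM in the blocked libraries. All 3 IP values lay at least several times above the highest blocked value, and IP library 1 was the highest. The log2 fold change was 4.26 (SE 0.69; edgeR adjusted p = 0.193). Gatm, the enzyme of the first step of creatine synthesis, had 66430, 25230 and 11300 CPM in IP, against 2540, 1736 and 2138 CPM in blocked IP. The blocked values were close together, and the IP values were spread widely with library 1 on top (log2 fold change 4.00, SE 0.74; edgeR adjusted p = 0.217). Marcks, an actin-binding substrate of protein kinase C, had 48350, 44410 and 12700 CPM in IP, against 3175, 4711 and 2889 CPM in blocked IP. IP libraries 1 and 2 were alike and library 3 was lower but above every blocked library (log2 fold change 3.29, SE 0.62; edgeR adjusted p = 0.217).

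Of the other high-ranked transcripts, Itgb1, the integrin beta1 subunit that anchors cells to matrix, had 3737, 2346 and 1033 CPM in IP, against 372, 234 and 406 CPM in blocked IP. Rab21, a small GTPase that moves integrins through endosomes, had 2628, 2397 and 416 CPM in IP, against 43.9, 142 and 99.4 CPM in blocked IP. In both, IP library 3 was the lowest of the IP libraries and still above all blocked ones. Tram1, a protein of the translocation channel of the endoplasmic reticulum, had 2961, 2147 and 1025 CPM in IP, against 128, 229 and 241 CPM in blocked IP. Ebf1, a transcription factor of B cells and connective tissue, had 492, 470 and 237 CPM in IP, against 22.6, 59.1 and 23.3 CPM in blocked IP. The log2 fold changes of these 4 transcripts ran from 2.81 for Itgb1 to 4.25 for Rab21, and leaving out any 1 library left them at 2.41 or more.

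In 2 of the 10 the blocked libraries held no count at all. A retained-intron transcript of Rhot1, which encodes the mitochondrial GTPase Miro1 that links mitochondria to motor proteins, had 34.3, 38.3 and 10.6 CPM in IP and 0 counts in each blocked library. That made it at least 378-fold higher in IP, at a floor of 3 counts over the blocked group, which covers counting error only. In naive nerve the same transcript had 8.97, 62.8 and 28.8 CPM in IP, against 36.4, 38.6 and 31.2 CPM in blocked IP, so its absence was seen in the injured blocked libraries and not in the naive ones. Dhrs2, a short-chain dehydrogenase, had 16.4, 12.4 and 5.73 CPM in IP and 0 counts in each blocked library, at least 164-fold higher. In naive nerve Dhrs2 had 93.9, 104 and 10.97 CPM in IP, against 0.099, 0 and 0.04 CPM in blocked IP. In all, 715 transcripts were at 0 counts in every blocked library and above 0 in every IP library, and 0 transcripts showed the reverse. Since the table was filtered on the group where a transcript is high, these 2 counts are a description of the listed transcripts only. DESeq2 called all 10 of these transcripts, and limma voom called 2 of them, Rhot1 and Dhrs2.

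**Figure D1:**
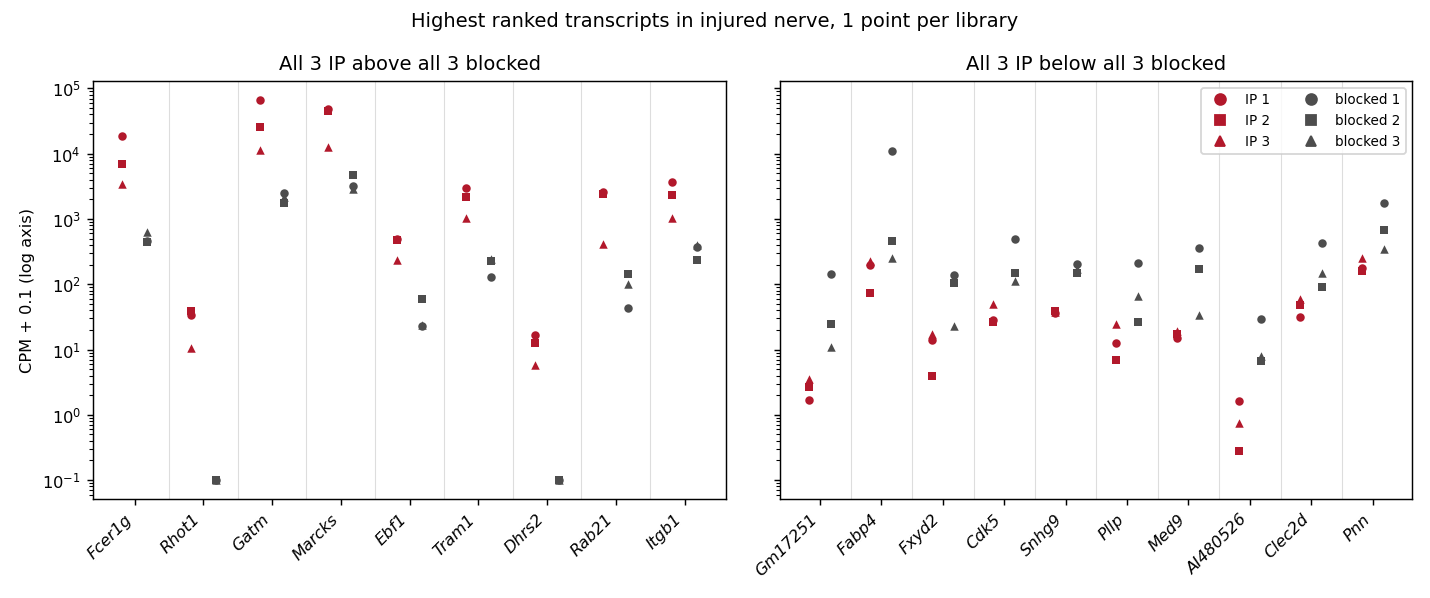
Level of 9 of the 10 highest ranked transcripts with all IP libraries above (left panel) and of the 10 with all below (right panel) all blocked libraries, as CPM + 0.1 on a log axis; each point is 1 library (red IP, grey blocked IP; circle, square and triangle for replicates 1, 2 and 3). On the left, IP library 3 is the lowest IP value of each transcript; on the right, blocked library 1 is the highest blocked value of each, as with Fabp4 at 11190 CPM.

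The 10 highest ranked transcripts below blocked IP had lower levels and rested more on 1 library. Fabp4, the fatty acid carrier of fat cells, had 195, 74.1 and 225 CPM in IP, against 11190, 463 and 251 CPM in blocked IP. Its lowest blocked value, in library 3, lay just above the highest IP value (log2 fold change -4.59, SE 1.38; edgeR adjusted p = 0.217). Snhg9, a short noncoding host of a small nucleolar RNA, had 36.5, 38.3 and 37.5 CPM in IP, against 204, 147 and 174 CPM in blocked IP. It was the most even of the 10 in both groups (log2 fold change -2.22, SE 0.68; edgeR adjusted p = 0.217). Pnn, a nuclear protein of splicing, had 177, 160 and 250 CPM in IP, against 1750, 668 and 343 CPM in blocked IP. Cdk5, a kinase best known in neurons, had 28.3, 26.4 and 49.3 CPM in IP, against 495, 150 and 110 CPM in blocked IP. Med9, a subunit of the Mediator complex, had 15.2, 17.4 and 18.9 CPM in IP, against 355, 173 and 33.4 CPM in blocked IP. The highest blocked value of all 3 was in library 1. The log2 fold changes of the other 5, Gm17251, AI480526, Fxyd2 (a Na,K-ATPase subunit), Pllp (the myelin membrane protein plasmolipin) and Clec2d (a ligand of a natural killer cell receptor), ran from -4.54 to -2.29. Leaving out 1 library moved the log2 fold change of Fabp4 to as little as -1.12, of Pnn to -1.37, of Clec2d to -1.40, of Pllp to -1.63, of Gm17251 to -2.81 and of Cdk5 to -1.91, while Snhg9 stayed between -2.34 and -2.10. DESeq2 called 8 of the 10, all but Clec2d and Pnn, and limma voom called 0.

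The most abundant transcripts of the IP libraries were taken by mean CPM. Col1a1, the alpha1 chain of type I collagen, had the highest mean CPM of all in IP, with 134200, 78730 and 13140 CPM, against 7145, 9201 and 5795 CPM in blocked IP. It took 8.34%, 5.93% and 1.62% of the counts of the IP libraries, against 0.803%, 1.20% and 0.819% of the blocked libraries (log2 fold change 3.35, SE 0.71; edgeR adjusted p = 0.217). Col1a2, which encodes the partner chain of the same collagen, had 5322, 4189 and 8403 CPM in IP, against 1961, 3066 and 6413 CPM in blocked IP. Its groups overlapped and its log2 fold change was 0.65 (SE 0.59; edgeR adjusted p = 0.801), while the difference between the 2 chains was not tested.

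Lbh, a transcriptional cofactor, had 39380, 23020 and 1640 CPM in IP, against 2052, 2008 and 316 CPM in blocked IP. Frg1, a nuclear RNA-associated protein, had 21000, 28360 and 1408 CPM in IP, against 845, 1196 and 256 CPM in blocked IP. For Lbh the value of IP library 3 lay within the blocked range, and for Frg1 it lay above it. Tagln2, an actin-binding transgelin, had 30560, 41640 and 3049 CPM in IP, against 5768, 10650 and 503 CPM in blocked IP. Gltp, a glycolipid carrier, had 29800, 30220 and 1937 CPM in IP, against 2854, 3187 and 417 CPM in blocked IP. For these 4 transcripts library 3 was the lowest of both groups, and each IP library was above the blocked library of the same number. Nid1, a basement membrane protein, and Bgn, the proteoglycan biglycan, had log2 fold changes of 2.25 and 1.24 with overlapping groups. Malat1, a nuclear noncoding RNA, was the only 1 of the 10 with a negative log2 fold change: 15910, 14260 and 22050 CPM in IP, against 34400, 17190 and 33050 CPM in blocked IP (-0.70, SE 0.53; edgeR adjusted p = 0.724).

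**Figure D2:**
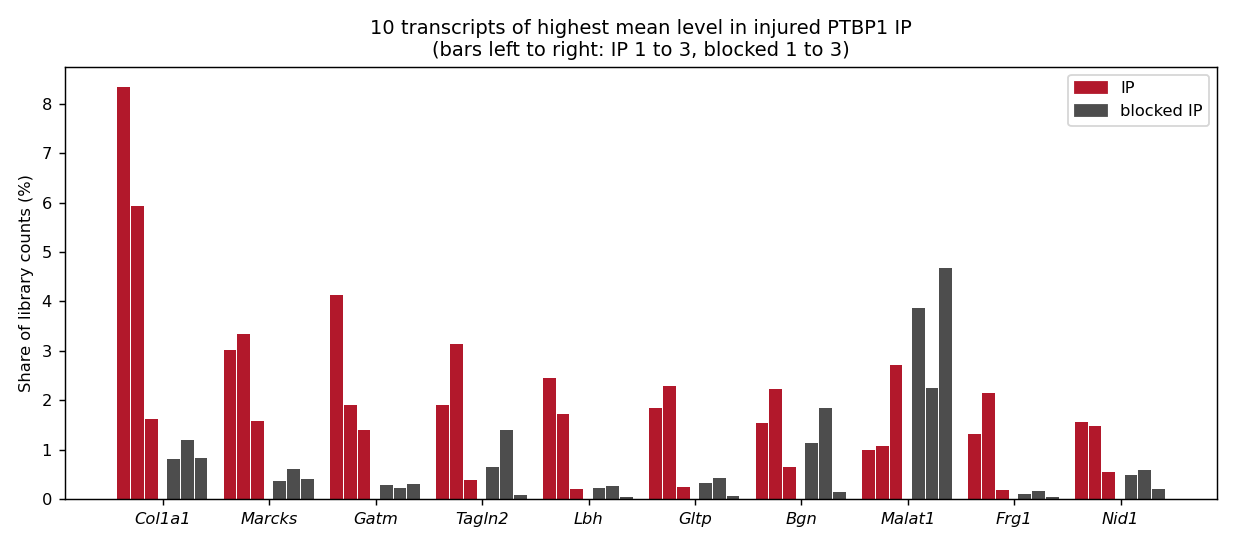
Share of each library's counts (%) taken by the 10 transcripts of highest mean CPM in injured PTBP1 IP; the bars of a transcript are IP libraries 1 to 3 (red) and blocked libraries 1 to 3 (grey). Col1a1 took 8.34% of IP library 1, the tallest bar, and Malat1 is the transcript with taller grey than red bars.

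Median log2 fold changes rose with pyrimidine content. When the 14251 tested transcripts with a sequence were divided into quintiles by the share of C and T, from a median of 45.2% in the poorest to 52.6% in the richest, the median log2 fold change of IP over blocked IP was -0.34, -0.18, -0.04, 0.22 and 0.69 from poorest to richest. All 3 IP libraries lay above all 3 blocked libraries in 24.0% of the richest quintile and in 13.2% of the poorest, beside 16.6% of all tested transcripts. In the opposite direction the shares were 3.86% and 8.63%. Quintiles by the longest stretch gave medians from -0.30 in the shortest to 0.78 in the longest. These quintiles also differed in transcript length, with a median of 937 bases in the shortest and 3782 in the longest. In 3 equal classes of transcript length, the Spearman correlation of longest stretch with log2 fold change was 0.069 among the shortest transcripts. It was 0.203 among the middle and 0.253 among the longest. Of the 2414 transcripts with all IP libraries above, 28.1% of those with a sequence held a stretch of 20 bases or more, against 10.2% of the 917 with all IP libraries below and 19.1% of all tested. These and the following divisions by sequence were chosen after the data were seen, and transcripts are not independent replicates.

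The difference between richest and poorest was computed within kinds of transcript. The richest quintile lay 0.88 above the poorest on the log2 scale among protein-coding transcripts, 1.01 above among those averaging 5 CPM or more over the 6 libraries. In 3 equal classes of transcript length it lay 0.61 above among the shortest, 0.99 among the middle and 1.36 among the longest. Among the shortest the quintile medians did not follow pyrimidine share throughout, at -0.20, -0.35, -0.15, -0.11 and 0.41, and the Spearman correlation was 0.075. Over all tested transcripts it lay 1.03 above. Per numbered pair of libraries, on log2(CPM + 1), the difference was 1.09, 0.81 and 0.32. Leaving out any 1 of the 6 libraries gave 0.79 to 1.40. The Spearman correlation of pyrimidine share with the log2 fold change was 0.172 over 14251 transcripts, which share libraries, and that of GC content was -0.144. For GC content the correlation was -0.075 in naive PTBP1 and -0.221 for nucleolin of injured nerve, so it was strongest for nucleolin.

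The order followed the 3' UTR more than the other parts of the transcript, a difference that was not tested. Among 6861 protein-coding transcripts with at least 100 bases in each part, quintiles by the pyrimidine share of the 3' UTR had median log2 fold changes of -0.37, -0.25, -0.01, 0.08 and 0.34. Quintiles by the coding sequence had -0.23, -0.04, -0.12, -0.02 and 0.06. Those by the 5' UTR had -0.03, -0.15, -0.11, -0.06 and 0.01. The Spearman correlations were 0.174 for the 3' UTR, 0.058 for the coding sequence and 0.025 for the 5' UTR. By 3' UTR, all IP libraries lay above all blocked ones in 18.8% of the richest quintile and 9.40% of the poorest. The difference between the richest and poorest 3' UTR quintiles was 0.71, and leaving out any 1 library gave 0.53 to 0.98.

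**Figure D3:**
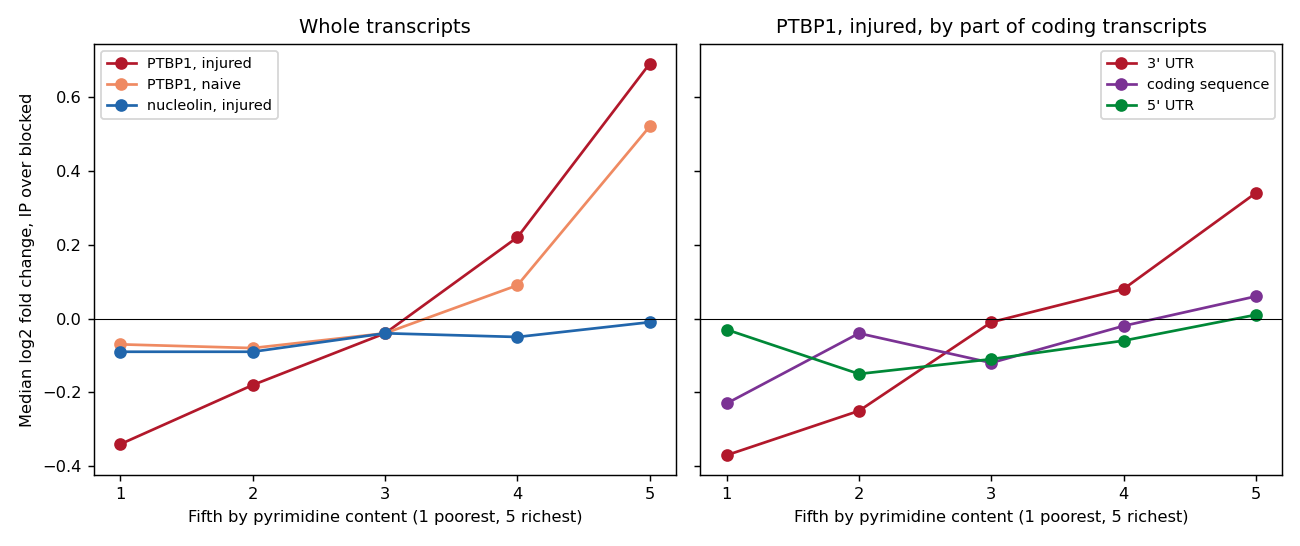
Median log2 fold change of IP over blocked IP (vertical axis) in quintiles of transcripts by pyrimidine content (horizontal axis, poorest to richest), for whole transcripts in 3 experiments (left) and for the 3' UTR, coding sequence and 5' UTR in injured PTBP1 (right). The injured PTBP1 line runs from -0.34 to 0.69 and the nucleolin line from -0.09 to -0.01; on the right the 3' UTR line runs from -0.37 to 0.34.

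By pyrimidine share and by longest stretch, the medians spread less across quintiles in naive PTBP1 IP, and least in nucleolin IP of injured nerve. In Spearman correlation, nucleolin was closer to naive PTBP1 by longest stretch and by motif than by pyrimidine share. By pyrimidine share the correlation was 0.098 in naive PTBP1 and 0.041 for nucleolin. Across the whole-transcript quintiles the naive medians ran from -0.07 in the poorest to 0.52 in the richest, and the nucleolin medians from -0.09 to -0.01. By 3' UTR they ran from -0.27 to 0.20 in naive PTBP1 and from -0.11 to -0.21 for nucleolin. In single libraries, the richest quintile exceeded the poorest in mean log2(CPM + 1) by 1.21, 0.99 and 0.34 in injured PTBP1 IP, against 0.10, 0.23 and 0.02 in injured blocked IP. These groups did not overlap, though IP library 3 lay close to the highest blocked library. Naive PTBP1 IP had 0.62, 0.66 and 0.37, against 0.06, 0.14 and 0.13 in naive blocked IP. Nucleolin IP had 0.05, 0.17 and 0.31, against -0.09, 0.02 and 0.18 in its blocked IP, and injured input had 0.10, 0.26 and 0.31. By longest stretch, shortest to longest quintile, the naive medians ran from -0.19 to 0.63 and the nucleolin medians from -0.21 to 0.08. The Spearman correlation of the longest stretch with the log2 fold change was 0.174 in injured PTBP1, 0.127 in naive PTBP1 and 0.114 for nucleolin. That of TCTTT per kilobase was 0.168 in injured PTBP1, 0.098 in naive PTBP1 and 0.119 for nucleolin. Differences between these experiments in the order were not tested. The richest quintile took 47.6%, 44.7% and 23.8% of the CPM of the injured IP libraries, against 23.5%, 28.8% and 18.2% of the blocked libraries, where IP library 3 overlapped.

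**Figure D4:**
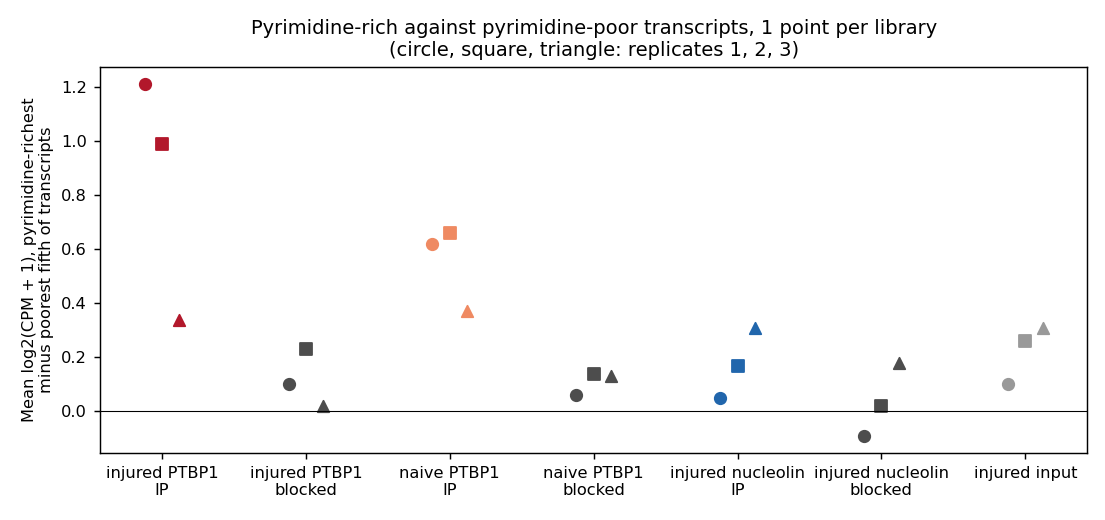
Mean log2(CPM + 1) of the pyrimidine-richest minus the poorest quintile of transcripts (vertical axis), 1 point per library, for 7 groups of 3 libraries (horizontal axis; circle, square and triangle for replicates 1, 2 and 3). Injured PTBP1 IP libraries 1 and 2, at 1.21 and 0.99, lie above all other libraries, and IP library 3 lies at 0.34.

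Short motifs that PTBP1 is known to bind were common in all transcripts. TTCTCT, searched on the transcript strand alone and with overlaps with the other motifs counted, was present in 66.7% of tested transcripts, TCTTT in 86.9% and CTTTC in 85.7%. Of the 10 highest ranked transcripts above blocked IP, 8 held TTCTCT, 10 held TCTTT and 9 held CTTTC. Of the 10 below blocked IP, 6, 9 and 7 held them. The median length was 3385 bases in the 10 above and 1085 bases in the 10 below, beside 2583 over all tested transcripts. A match is a description of the sequence only.

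Transcripts annotated with a retained intron stood higher than coding ones, but at low levels. The 1913 tested retained-intron transcripts had a median log2 fold change of 1.08, and 29.6% had all IP libraries above all blocked ones; the 10096 protein-coding transcripts had a median of -0.11 and 12.7%. Their median level was 2.58 CPM, against 17.0 CPM for coding transcripts. At 5 CPM or more the medians were 0.00 for 639 retained-intron transcripts and -0.25 for 7132 coding ones. In 935 genes with both forms tested, the retained-intron form had the higher log2 fold change in 616 (65.9%). The class also stood high in naive PTBP1 IP, with a median of 1.16, and in nucleolin IP, with a median of 0.66. Across level quintiles of all transcripts, from 0.671 to 114 CPM at the median, the median log2 fold change was 1.11, 0.57, -0.15, -0.37 and -0.17, and 22.9% of the lowest quintile were at 0 in all blocked libraries.

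Gene lists were counted with 1 transcript per gene, the one with the highest level, and no member of any list passed edgeR's test in either direction. Over the 11540 genes, 14.4% had all IP libraries above all blocked ones and 7.14% had all below, with a median log2 fold change of -0.08. In the PTBP family, Ptbp3, a paralog first known from blood cells, had 146, 188 and 154 CPM in IP, against 73.1, 25.5 and 76.0 CPM in blocked IP. Ptbp2, the neuronal paralog, had 54.1, 49.6 and 92.01 CPM in IP, against 135, 98.8 and 129 CPM in blocked IP. Ptbp3 lay above and Ptbp2 below in every library (log2 fold changes 1.48 and -0.89; edgeR adjusted p = 0.658 and 0.689). The listed transcript of Ptbp1 itself had 0.713 to 1.27 CPM in IP and 0.836 to 1.49 CPM in blocked IP. Of 13 published PTBP1 targets, which include both paralogs, Ptbp3 and Cdkn1b lay above and Ptbp2 and Cltb below. Cdkn1b, the cell cycle inhibitor p27, had 25.9, 22.03 and 11.6 CPM in IP, against 0.418, 0 and 2.70 CPM in blocked IP (log2 fold change 4.23, SE 1.75; edgeR adjusted p = 0.320). The listed transcript of Pkm, a glycolytic enzyme whose splicing PTBP1 regulates, had 0, 0 and 3.29 CPM in IP, against 0.0697, 0 and 7.45 CPM in blocked IP. The other 8 tested targets had overlapping groups and log2 fold changes from -1.001 for Rtn4 to 2.23 for Tpm1, and the sign turned for Vim, Actn1, Tpm2, Gabbr1, Kpnb1 and Pkm when 1 library was left out.

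Axonal injury signalling had 16 tested genes, of which 3 lay above (Rhoa, Map3k12 and Stat3) and 1 below (Dync1h1), or 18.8% and 6.25%. These shares were near those of all 11540 genes, 14.4% and 7.14%. Map3k12 and Stat3 were represented by retained-intron transcripts, a class in which 29.6% of all tested transcripts lay above. Rhoa, a GTPase of the actin skeleton and growth cone, had 2748, 1932 and 1031 CPM in IP, against 422, 422 and 318 CPM in blocked IP. The lowest IP value was above the highest blocked value, and the log2 fold change was 2.30 (SE 0.52; adjusted p = 0.217 by edgeR, 4e-04 by DESeq2 and 0.0398 by limma voom). A retained-intron transcript of Map3k12, the injury-sensing kinase DLK, had 5.82, 8.74 and 2.68 CPM in IP, against 0, 0 and 0.0403 CPM in blocked IP. The Stat3 transcript, from the gene of a retrogradely carried transcription factor, was also a retained-intron form and had 7.93, 3.03 and 0.802 CPM in IP, against 0.139, 0 and 0.161 CPM in blocked IP. Dync1h1, the heavy chain of the retrograde motor dynein, had 200, 217 and 222 CPM in IP, against 503, 735 and 561 CPM in blocked IP (log2 fold change -1.49, SE 0.48; edgeR adjusted p = 0.218). Its values were tight in both groups. The other 12 genes of the list had overlapping groups. Kif5a, a motor of axonal transport, had 10.4, 12.7 and 7.95 CPM in IP, against 193, 35.05 and 8.54 CPM in blocked IP, and the log2 fold changes of the rest ran from -1.41 for Ranbp1 to 0.20 for Atf3, an injury-induced transcription factor. Of 23 axonal mRNAs 5 (21.7%) lay above, Cdc42, Ywhaz, Rhoa, Calr and Stat3, and 0 below, while the list median was -0.18. Rhoa and Stat3 are members of both lists. Cdc42, a GTPase of the growth cone, had 2143, 1777 and 1780 CPM in IP, against 1026, 1008 and 1096 CPM in blocked IP (log2 fold change 0.86, SE 0.48).

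RNA-binding proteins of the nucleus were mixed. Of 32 hnRNP and splicing factors, 4 lay above (12.5%: Qk, Nono, Elavl1 and Hnrnpr) and 1 below (3.12%: Srsf6), with a median log2 fold change of -0.43. Qk, the quaking protein that regulates myelin mRNAs, had 6265, 5170 and 1203 CPM in IP, against 890, 858 and 673 CPM in blocked IP (log2 fold change 2.38, SE 0.72; edgeR adjusted p = 0.217). Zinc finger genes lay above in 42 of 218 (19.3%) and below in 11 (5.05%). Their median log2 fold change was 0.12 with TMM scaling and -0.42 with library totals alone, where the median of all genes was -0.60. Without IP library 3 it was -0.17, beside -0.31 for all genes. With the replicate block it was 1.03, beside 0.49 for all genes, and with limma voom 1.30, beside 0.56.

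Ribosomal protein and translation factor genes had members below and none above, and respiratory chain genes had members on both sides. Of 82 cytosolic ribosomal proteins, 0 lay above and 16 (19.5%) below, with a median log2 fold change of -0.88. Rps12, a protein of the small subunit, had 230, 304 and 800 CPM in IP, against 995, 969 and 853 CPM in blocked IP. IP library 3 was closest to the blocked libraries here too. The list's summed level was 2820, 3600 and 9080 CPM in IP, against 9010, 10400 and 10700 CPM in blocked IP and 17000 to 19800 CPM in injured input. Of 20 translation factors 0 lay above and 5 below, Eif5b, Eif4b, Eif3c, Eif3b and Eef1b2. Eif4h, a helper of the helicase that opens mRNA for translation, had 9236, 9090 and 664 CPM in IP, against 2327, 2397 and 399 CPM in blocked IP, so the groups overlapped. Of 19 respiratory chain genes 4 (21.1%) lay above, among them Ndufs1, Atp5g3 and Ndufv1, and 6 (31.6%) below, with a median of -1.14. Both shares were larger than those of all genes, 14.4% above and 7.14% below. The median of the ribosomal list was negative under each scaling tried, from -1.27 with library totals to -0.83 with RLE. The medians of all genes under these 2 scalings were -0.60 and 0.05. Without IP library 3 the ribosomal median was -1.76 and that of the respiratory chain was -2.05, beside -0.31 for all genes. Both lists were also low in the other experiments. The ribosomal median was -0.63 in naive PTBP1 IP and -0.51 in nucleolin IP of injured nerve, and the respiratory chain median -0.77 and -0.66.

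**Figure D5:**
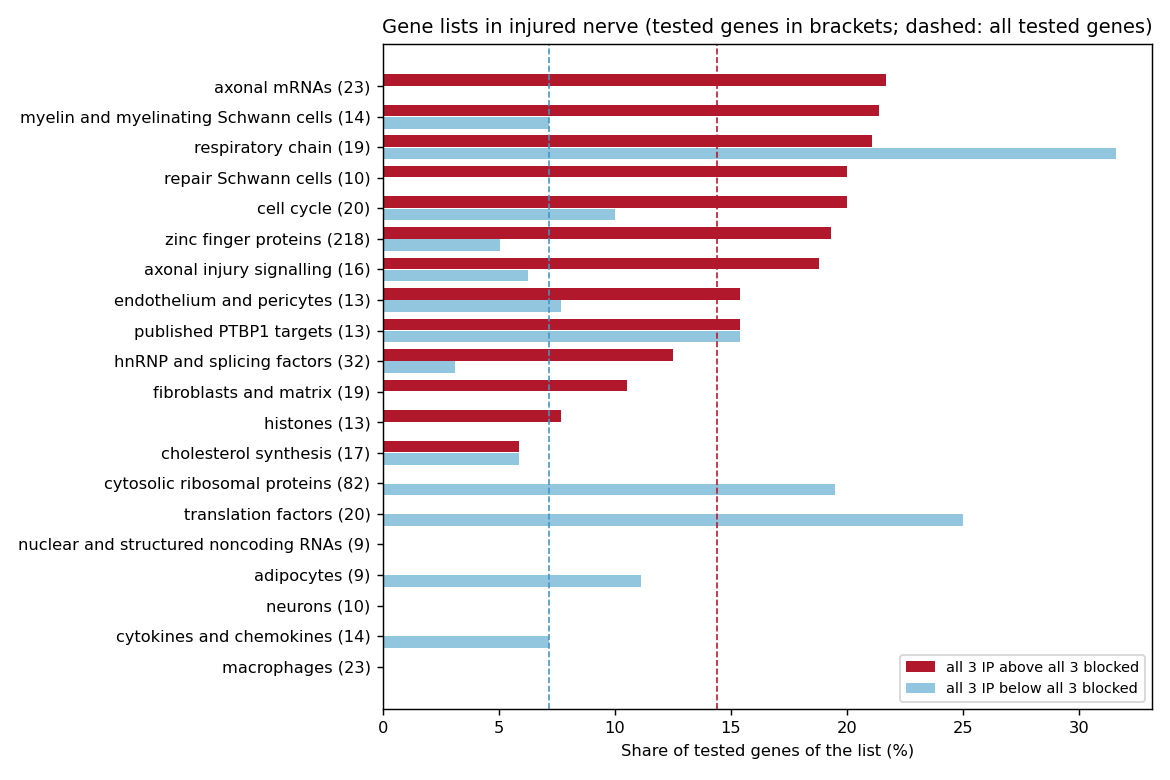
Share of the tested genes of each list (%, horizontal axis) with all 3 IP libraries above (red) or below (blue) all 3 blocked libraries in injured nerve, for lists of 9 genes or more; dashed lines are the shares over all 11540 genes. Cytosolic ribosomal proteins and translation factors have 0% above, against 14.4% of all genes.

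Markers of the cells in the nerve gave these values. Over all genes 14.4% lay above and 7.14% below, with a median log2 fold change of -0.08. Among 14 genes of myelin and myelinating Schwann cells, 3 (21.4%) lay above, among them Drp2 and Mbp, and 1 (7.14%) below, Pllp. Drp2, a dystrophin-related protein of Schwann cells, had 769, 395 and 181 CPM in IP, against 84.65, 155 and 138 CPM in blocked IP. Of 10 repair Schwann cell genes, Sox4 and Ncam1 lay above (20.0%), while the median log2 fold change of the list was -0.30. Ncam1, a cell adhesion molecule of non-myelinating Schwann cells, had 430, 284 and 174 CPM in IP, against 32.6, 94.8 and 69.9 CPM in blocked IP (log2 fold change 2.17, SE 0.66; edgeR adjusted p = 0.217). Among 20 cell cycle genes 4 (20.0%) lay above, Ccna2, Top2a, Bub1b and Aspm, and 2 (10.0%) below. Of 19 fibroblast and matrix genes, Col1a1 and Pi16 lay above (10.5%, under the share of all genes). Of 3 tested lymphocyte genes Cd4, a receptor of helper T cells that some macrophages also carry, lay above, with 454, 250 and 38.5 CPM in IP, against 27.4, 24.9 and 2.90 CPM in blocked IP (log2 fold change 3.75; edgeR adjusted p = 0.393).

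The remaining lists had few members that separated the groups. Of 13 histones 1 lay above (H2afx) and 0 below, of 17 cholesterol synthesis genes 1 lay above and 1 below, and of 14 cytokines and chemokines 0 lay above and 1 below (Cxcl2). Of 13 endothelium and pericyte genes 2 lay above and 1 below, and of 4 red blood cell genes 1 lay above (Hba-a2). In the lists of 3 neutrophil, 6 skeletal muscle and 9 nuclear noncoding genes 0 lay above and 0 below. The values of Rgs5, a pericyte gene, and of Myh4, a muscle myosin, turned sign when 1 library was left out, at -1.19 to 1.44 and -3.22 to 7.06.

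Macrophage markers, which do not include Fcer1g, did not separate the groups. Of 23 tested, 0 lay above and 0 below, and their summed level was 4690, 4830 and 11900 CPM in IP, against 3970, 7740 and 11900 CPM in blocked IP and 12900 to 14800 CPM in injured input. Gpnmb, a glycoprotein of phagocytes, had 639, 687 and 1784 CPM in IP, against 703, 1796 and 2013 CPM in blocked IP.

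Fat cell, neuron and vessel markers were high in 1 blocked library. The 9 adipocyte markers summed to 672, 401 and 986 CPM in IP, against 18800, 852 and 1050 CPM in blocked IP, and 910 to 1210 CPM in injured input. The complement protease Cfd had 50.8, 5.26 and 33.9 CPM in IP, against 4853, 3.91 and 44.3 CPM in blocked IP. The 10 neuron markers summed to 136, 57.5 and 147 CPM in IP, against 2180, 92.9 and 119 CPM in blocked IP, with Tubb3 at 720 CPM and Nefl at 429 CPM in blocked library 1. The 13 endothelium and pericyte markers summed to 1500, 1270 and 1070 CPM in IP, against 4360, 637 and 835 CPM in blocked IP. The median log2 fold change of the adipocyte list was -4.59 with all libraries and 0.30 without blocked library 1, and that of the neuron list -2.53 and 0.12. The part of these cell types in the lower values of other transcripts, such as Cdk5 and Med9, was not tested.

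Injury was compared through naive nerve. No transcript passed edgeR's test for a change of enrichment between injured and naive nerve (0 of 14540 in each direction, 0%; smallest adjusted p 0.541; 562 and 585 at an unadjusted p under 0.05). Naive PTBP1 IP against its blocked IP also gave 0 calls (0 of 14540; 1673 higher and 220 lower at an unadjusted p under 0.05), and its groups did not overlap in 1347 transcripts with IP above (9.26%) and 681 with IP below (4.68%). Of the 2414 transcripts above in injured nerve, 405 (16.8%) were above in naive nerve too, and these are 30.1% of the 1347; 20 (0.829%) were below. Fcer1g had 902, 561 and 514 CPM in naive IP, against 223, 498 and 308 CPM in naive blocked IP, a log2 fold change of 0.94 in naive nerve. Col1a1 had a log2 fold change of 1.16 in naive nerve, Marcks 2.20, Gatm 2.47 and Rhoa 1.499. All 5 were smaller than in injured nerve, and the edgeR adjusted p of these differences was 0.541 to 0.926. Gltp and Tagln2 had larger values in naive nerve, at 5.20 and 4.39.

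Nucleolin IP of injured nerve gave another antibody for comparison. Over its own blocked IP, edgeR called 11 of 12618 transcripts higher (0.0872%) and 0 lower. The nucleolin groups did not overlap in 1357 of 12493 shared transcripts with IP above (10.9%) and 758 with IP below (6.07%). Of 1821 shared transcripts above in injured PTBP1 IP, 417 (22.9%) were also above in nucleolin IP, and these are 30.7% of the 1357; 52 (2.86%) were below. The log2 fold changes of injured PTBP1 correlated with those of nucleolin at a Pearson r of 0.285 over 12493 transcripts, and with those of naive PTBP1 at 0.299 over 14540. No transcript passed the test that PTBP1 enrichment differed from nucleolin enrichment (0 of 12618 in each direction, 0%; smallest adjusted p 0.115; 980 higher and 317 lower at an unadjusted p under 0.05, all by edgeR). Col1a1 had 5549, 4559 and 5478 CPM in nucleolin IP, against 4346, 2946 and 5868 CPM in its blocked IP. Gatm had 781, 527 and 1307 CPM in nucleolin IP, against 1239, 597 and 1293 CPM in its blocked IP. Neither separated the nucleolin groups, and the log2 fold changes there were 0.24 for Col1a1 and -0.26 for Gatm. The difference between the antibodies was 3.24 for Col1a1 and 4.40 for Gatm (edgeR adjusted p = 0.284 and 0.157). Bgn, by contrast, had 7656, 4756 and 1811 CPM in nucleolin IP, against 621, 181 and 558 CPM in its blocked IP.

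Against injured input, the same IP libraries gave calls. By edgeR's test 119 of 12393 shared transcripts (0.96%) were higher in PTBP1 IP than in input, and 8 (0.0646%) were lower, after adjustment. Since this contrast uses the same IP libraries as the one above, it is not independent of it. Of the 119, 52 also had all IP libraries above all blocked libraries. Frg1 rose by 6.51 on the log2 scale over input, Tagln2 by 6.47, Lbh by 6.31, Bgn by 5.59, Gatm by 4.05 and Fcer1g by 3.77 (edgeR adjusted p from 0.0203 to 0.0329). Blocked IP was itself above input for some of these: Bgn averaged 19810 CPM in IP, 8405 CPM in blocked IP and 440 CPM in input, and Tagln2 25080, 5642 and 304 CPM. Drp2 rose by 2.85 (edgeR adjusted p = 0.0428). Rps12 fell by 2.67 (edgeR adjusted p = 0.0320). With the replicate block the counts were 29 higher and 0 lower. A list of 4 transcripts that can collect ribosomal RNA reads summed to 14200, 10300 and 18000 CPM in IP, against 982000, 237000 and 56800 CPM in input, and its part in these calls was not tested.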

How the data were processed

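RNA was sequenced from mouse sciatic nerve axoplasm; 6 libraries were compared, within a table of 12 PTBP1 libraries. The authors deposited whole-number counts per Ensembl transcript, beside FDR, p-values and log2 fold changes from their own tests, as the deposited headers name them. CASAVA 1.8.2, edgeR and the mm10 and GRCm38 builds are named per the submitters' processing notes; the aligner, counter, strand setting and annotation were not stated. In the table each of the 15041 transcripts reached 5 counts in every library of some group, so totals are not the full depth. The annotation used here (GENCODE M21, GRCm38) held 14737 of them, and 25 symbols turned to dates were restored from it. A total of 120 per-sample columns were not used.

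Counts were fitted with edgeR 4.0.16 in R 4.3.3 (TMM, filterByExpr, quasi-likelihood test, two-sided, Benjamini-Hochberg, 12 libraries in 1 fit; common dispersion 1.55), with DESeq2 1.42.0 and limma 3.58.1 voom as alternatives. The SE is the absolute log2 fold change divided by the square root of F. Floors used 3 counts. Permutation tests used scipy 1.17.1 in Python 3.11.15. The procedure was tested on simulated data.

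Named transcripts were, by rule, those past the threshold with groups that did not overlap, filled to 10 per direction by smallest unadjusted p, then the 10 of highest mean CPM in IP, members of the PTBP family, injury signalling and published targets, and up to 2 of highest CPM from other lists. Others (Qk, Drp2, Ncam1, Sox4, Cdc42 and list members named in counts) were chosen after their values were seen. For each listed gene the tested transcript of highest mean CPM was used. The rule names 99 transcripts; the text gives values for those the results turn on and summarises most others by list, and some genes are not reported here. Members and lists were chosen with earlier results of these data known. Same-numbered IP and blocked libraries deviated together from their group means, with correlations of 0.113, 0.142 and 0.313, all over 0.1, so the numbers were taken to pair the libraries. The fits reported are unpaired, and the replicate block was an alternative.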

Additional observations from a re-analysis of the deposited data

How the results depend on the processing

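Calls of IP over blocked IP depended on the tool: edgeR gave 0 higher and 0 lower, DESeq2 874 and 68, and limma voom 319 and 0. Leaving out 1 library gave 0 to 4 higher by edgeR, the 4 without IP library 3, and 0 lower; the other scalings, filters and sample sets gave 0. The cause was not tested. The median log2 fold change over all transcripts, 0.02, was -0.49 with library totals, 0.20 with DESeq2, 0.77 with limma voom, -0.16 with a filter of 5 CPM, 0.68 with the replicate block and -0.17 in the deposited table of 6 libraries; leaving out 1 library gave -0.17 to 0.54. The replicate block gave 0 calls for injured and naive enrichment, for the change with injury and for PTBP1 against nucleolin; over input it gave 29 higher and 0 lower, against 119 and 8. Leaving out 1 library gave 2789 to 4218 transcripts with all IP libraries above and 1039 to 2008 below; fewer libraries make such orders easier. The difference between pyrimidine-richest and poorest quintiles, 1.03, was 0.61 among the shortest transcripts and 1.35 with the replicate block; that of 3' UTRs, 0.71, was 0.53 to 0.98 with 1 library left out. A set of 53 named transcripts was followed under the alternatives, and 3 of its 843 values reversed, all without blocked library 1. These were Cfd at 0.30 (leaving out 1 library gave -6.48 to 0.30), Tubb3 at 0.19 (-3.97 to 0.19) and Nefl at 0.56 (-3.74 to 0.56). The set does not hold every transcript named here. It left out Vim, Actn1, Tpm2, Gabbr1, Kpnb1, Pkm, Atf3, Rgs5 and Myh4, whose sign also turned when 1 library was left out. Depth limits transcripts of low level, since 986 had 0 counts in every blocked library.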
